A study of Mus musculus with 12 samples.

Results

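The 36 genes described here mark macrophages, antigen presentation and lymphocytes. They are a given list of gene symbols, out of 55416 gene identifiers counted in each library. Their roles fall into 7 groups, which are 4 MHC class II genes, 3 complement C1q chains, 7 myeloid receptors, 4 surface genes of resident macrophages, 8 genes shared by leukocytes, 6 T and NK cell genes and 4 B cell genes. A filter on low counts kept 34 of them for testing and removed Cd3d (T cell receptor complex) and Ms4a1 (CD20 of B cells).

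Sensory ganglia hold resident macrophages that lie around the neuron cell bodies, with fewer T and B cells in the tissue and its coverings. Macrophages depend on the CSF1 receptor, and many make the C1q chains that start the classical complement cascade. Antigen is shown to CD4 T cells on MHC class II, whose genes are driven through conserved X and Y boxes in their promoters under the control of CIITA, while the factor PU.1 controls many myeloid genes.

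The measurement was bulk RNA-seq of trigeminal ganglia, the sensory ganglia of the face, from 12 adult C57Bl6 mice taken 1 month after injection. Prdm12 encodes a transcriptional regulator of pain-sensing neurons. The 6 inducible knockouts (iKO) were Rosa26Cre ERT2; Fl/Fl and received tamoxifen. Of the 6 controls, control 1 was Rosa26Cre ERT2; Fl/+, controls 2 and 3 were +/+; Fl/+ and control 4 was Rosa26Cre ERT2; +/+, and all 4 received tamoxifen. Controls 5 and 6 were Rosa26Cre ERT2; Fl/Fl, the iKO genotype, and received corn oil. Rosa26 is active in most cell types, so the recombinase was not limited to neurons. Females were controls 1 and 2 and iKO 1, 2 and 3, and the other 7 animals were male. Fewer cells of a type and less RNA per cell cannot be told apart in whole-tissue RNA.

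The reads came from libraries of 13207526 to 24178970 counts in total. Levels are CPM (read counts scaled to a common library size) after TMM scaling. A count of 0 allows up to 0.124 CPM in the deepest library and up to 0.227 CPM in the shallowest, taking 3 counts as the limit and covering counting error only. Prdm12 was at 106 ± 28.4 CPM in controls and 16.7 ± 1.97 CPM in iKO (mean ± SD, n = 6 each), so that iKO stood at -2.64 ± 0.185 (log2, SE) against control, with an edgeR adjusted p of 2.7e-05. Sensory neuron genes were high in every library, with a summed 7077 to 9330 CPM, and pituitary genes summed to 6.11 to 2784 CPM. Some marker lists of other cells, chosen with earlier results of these data known, stood high in control 6. Its 9 neutrophil and monocyte genes summed to 1388 CPM against at most 163 CPM in the other controls, 604 CPM in iKO 5 and 231 CPM in iKO 6. Its 6 red cell genes summed to 898 CPM, against at most 191 CPM elsewhere.

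Promoters are shown for genes of MHC class II and C1q, a pair of groups that behaved differently in control 6. The motifs named above can be read in them, and a link between the motifs and control 6 was not tested. Each window is the 250 bases before the RefSeq start of the gene in build GRCm38.p6, read on the gene's own strand. Capitals mark the Y box core CCAAT, the X box core TAGNAAC and the PU.1 core GAGGAA, searched on both strands, so that ATTGG is a Y box core and TTCCTC a PU.1 core on the opposite strand. The windows are H2-Aa at chr17:34287824-34288073 (minus strand), H2-Eb1 at chr17:34305617-34305866 (plus strand), C1qb at chr4:136886201-136886450 (minus strand) and C1qc at chr4:136892915-136893164 (minus strand).
H2-Aa: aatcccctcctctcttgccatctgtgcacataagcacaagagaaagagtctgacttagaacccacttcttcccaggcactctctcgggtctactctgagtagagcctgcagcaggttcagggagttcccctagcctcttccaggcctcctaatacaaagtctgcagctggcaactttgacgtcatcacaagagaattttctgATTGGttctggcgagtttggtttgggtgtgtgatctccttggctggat
H2-Eb1: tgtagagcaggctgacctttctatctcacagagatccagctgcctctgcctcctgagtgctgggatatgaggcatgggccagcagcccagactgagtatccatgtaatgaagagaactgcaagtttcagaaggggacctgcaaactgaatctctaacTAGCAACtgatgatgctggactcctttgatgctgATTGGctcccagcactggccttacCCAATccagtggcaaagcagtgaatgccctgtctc
C1qb: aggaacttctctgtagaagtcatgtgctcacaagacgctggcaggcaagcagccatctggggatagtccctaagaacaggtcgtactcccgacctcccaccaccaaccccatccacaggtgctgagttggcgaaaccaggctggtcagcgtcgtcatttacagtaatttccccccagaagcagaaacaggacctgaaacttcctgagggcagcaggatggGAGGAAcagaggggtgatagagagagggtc
C1qc: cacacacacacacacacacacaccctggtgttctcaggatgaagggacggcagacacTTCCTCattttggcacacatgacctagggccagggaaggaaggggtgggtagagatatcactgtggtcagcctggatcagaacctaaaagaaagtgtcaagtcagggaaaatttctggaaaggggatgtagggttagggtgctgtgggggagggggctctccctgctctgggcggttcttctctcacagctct

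The H2-Eb1 window held 1 X box core followed by 2 Y box cores, and the H2-Aa window held 1 Y box core and no match to the X box letters. Both C1q windows held 1 PU.1 core and neither of the other motifs. Among all 32851 RefSeq windows of this length, 33.8% held the Y box core, 9.93% the X box core and 23.3% the PU.1 core, so each of these short motifs is common. Windows of members on chromosome 18 were left out by choice, and H2-Ab1 and C1qa had no window in the set used. Over the remaining members, 24 genes had 26 windows, of which 9 held the Y box core, 2 the X box core and 16 the PU.1 core. Of the 16 macrophage genes with a window, 11 held a PU.1 core. Among the lymphocyte genes with a window, Cd3e, Cd3d, Cd8a and Cd79a held it too, and Nkg7 and Pax5 did not. The window of the macrophage gene Cd68 held 1 X box core and 3 Y box cores, so the class II motifs were not limited to class II genes. A match describes letters and not a bound site.

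Across all 12 libraries, the comparison of iKO with control asks whether these immune cell genes changed with loss of Prdm12. None of the 34 members tested passed, with edgeR's quasi-likelihood test, sex as a covariate and a Benjamini-Hochberg threshold of 0.05 over all genes, where 0.379% of 16637 genes passed. DESeq2 also called 0 members. At an unadjusted p under 0.05 there were 6 members, Cd74, C1qa, Cx3cr1, Trac, Cd4 and Pax5, against 10.9% of all genes. The log2 fold change was negative for 33 of 34 members against 49.5% of all genes, with a median of -0.26 against 0.00114 for all genes. No member had every iKO library below every control library (0.523% of all genes did), nor every iKO library above every control library (0.679% did).

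The shift was smaller without control 6. In that fit, 27 of 34 members had a negative log2 fold change against 47.9% of all genes, the median was -0.12, and 0 members passed where 0.526% of all genes did. Cx3cr1 and Trac were the 2 members at an unadjusted p under 0.05, against 10.5% of all genes. The sign turned positive for 6 members, namely Ccr2, Cd163, Ptprc, Tyrobp, Fcer1g and Nkg7. The 8 tamoxifen-injected replicates 1 to 4, a set without either corn oil control, are described after the role groups.

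**Figure D1:**
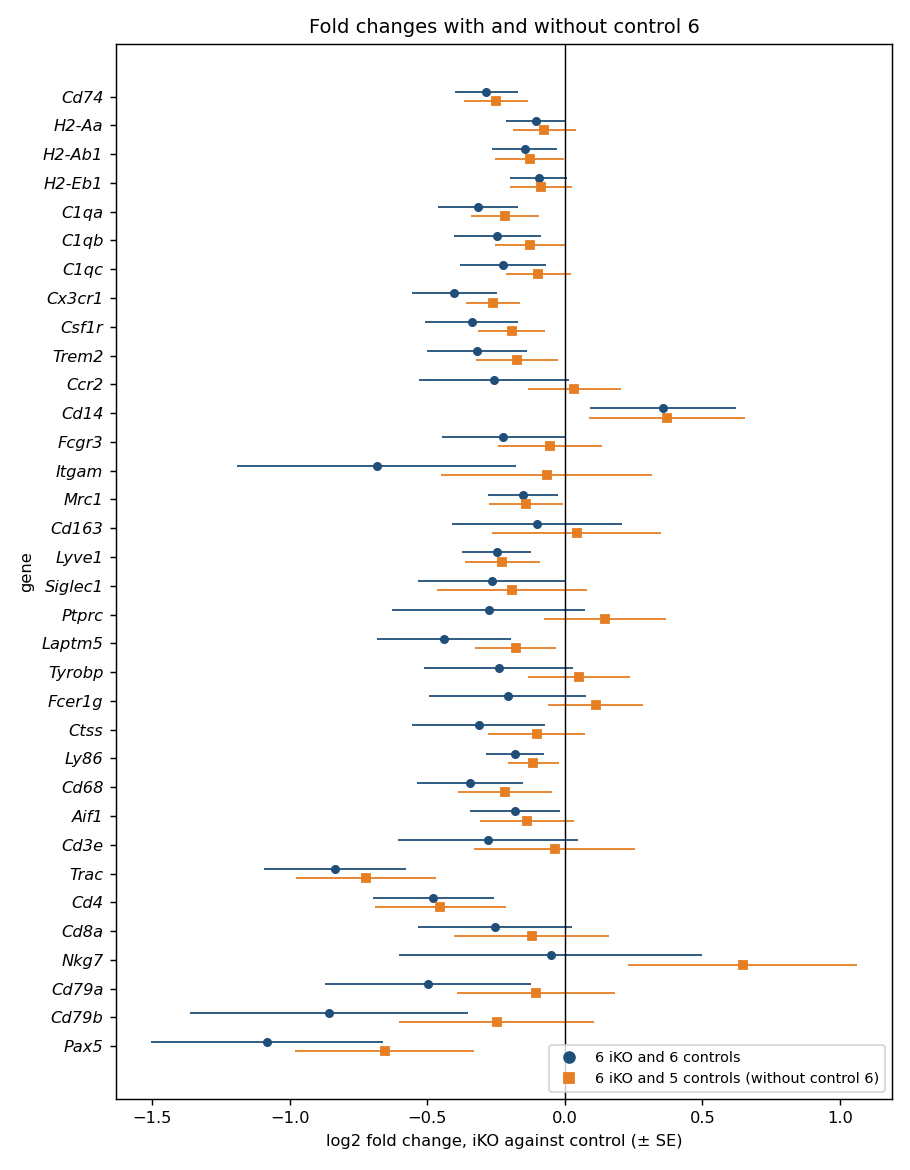
Log2 fold change of iKO against control for the 34 members tested, with SE bars, from the fit of all 12 libraries (blue circles) and the fit without control 6 (orange squares). Of the blue points 33 lie below 0 and of the orange points 27 do, and the gap between the colours is wide for Itgam, Ptprc, Nkg7 and the B cell genes and narrow for the MHC class II genes.

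The MHC class II genes did not share the excess in control 6 that most members showed. Cd74 (ENSMUSG00000024610), the invariant chain that guides class II molecules to the endosome, and H2-Eb1, the beta chain of I-E, had the highest levels per length among the members. Their mean levels in controls were 86.5 and 42.7 CPM per kilobase of exon. H2-Aa and H2-Ab1, the alpha and beta chains of I-A, were at 27.1 and 22.6 CPM per kilobase. Genes of the H2 family resemble each other and the handling of reads that map to several genes is not given in the sources used here, so their levels carry that uncertainty. Control 6 ranked 4th to 6th among the 12 libraries for these genes, at 1.02 to 1.10 times the median of the other controls.

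Cd74 ran from 126 to 187 CPM in controls (median 141) and from 87.6 to 171 CPM in iKO (median 125). The ranges overlapped widely, with control 2 highest and iKO 6 lowest. Its log2 fold change was -0.29 ± 0.114 (edgeR adjusted p = 0.37), and -0.25 ± 0.117 without control 6 (edgeR adjusted p = 0.485). H2-Aa ran from 92.0 to 126 CPM in controls and from 70.6 to 139 CPM in iKO, and H2-Eb1 from 71.9 to 105 CPM and from 61.1 to 110.1 CPM. For both genes iKO 2 was the highest library and iKO 6 the lowest, so that the iKO group spanned the whole range of the controls. The log2 fold changes of H2-Aa, H2-Ab1 and H2-Eb1 were -0.10, -0.15 and -0.10 with SEs of 0.11, 0.118 and 0.104. The direction did not change for any of these 4 genes without control 6.

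Within the male animals the class II genes did separate by group. Every male iKO library lay below every male control for 7 of 34 members, against 3.68% of all genes, and 0 of 34 lay above, against 4.79%. The 7 were all 4 class II genes, the leukocyte genes Ly86 and Aif1, and Trac. The margin was narrow for Ly86, with the lowest male control at 25.71 CPM and the highest male iKO library at 25.63 CPM. It was also narrow for Aif1, at 3.476 and 3.472 CPM. Cd74 ran from 127 to 150.3 CPM in the 4 male controls and from 87.6 to 112 CPM in the 3 male iKO libraries. For H2-Ab1 the ranges were 55.3 to 61.7 CPM and 41.9 to 49.6 CPM. Both the tamoxifen and the corn oil males among the controls stood above the iKO males. In a fit of the males alone, 0 of 35 members passed (0.00589% of all genes did), with Cd74 at -0.46 (edgeR adjusted p = 0.49), H2-Ab1 at -0.34 (edgeR adjusted p = 0.49), H2-Aa at -0.26 and H2-Eb1 at -0.23. In the same males 33 of 35 members had a negative log2 fold change (50.4% of all genes) and 7 had an unadjusted p under 0.05 (7.9%). Much of this rested on control 6. In the fit by group and sex described next, 32 of 34 members were negative in males (50.3% of all genes), with a median of -0.34. Without control 6 it was 20 of 34 (48.7%), with a median of -0.11. The class II genes moved little, with Cd74 at -0.43, H2-Ab1 at -0.34, H2-Aa at -0.23 and H2-Eb1 at -0.24.

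In females the 4 class II genes overlapped between the groups, with control 1 low and control 2 high. Every female iKO library lay below both female controls for 3 of 34 members (10.1% of all genes), which were Cx3cr1, Trac and Cd4, and above them for 1 (8.16%). A fit that gave each sex its own group difference, added after these values were seen, gave Cd74 a log2 fold change of -0.03 in females (95% interval -0.37 to 0.31) and -0.46 in males (-0.75 to -0.17). The difference between the sexes was -0.43 for Cd74 (-0.88 to 0.02) and -0.48 for H2-Ab1 (-0.93 to -0.03), each with an edgeR adjusted p of 1.00. Over the members the median difference was -0.22, and 0.13 without control 6 or -0.54 without control 2. No member passed in that test, where 0% of all genes did, and 2 of 34 had an unadjusted p under 0.05 against 1.91% of all genes. Besides H2-Ab1 this was Siglec1, at -1.36 (-2.20 to -0.52). All females were in replicates 1 to 4 and the corn oil controls were male, so sex, replicate set and injection overlap in this fit.

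The genes that load and control class II did not pass either. Of 11 in that list 9 were tested and 0 passed, with a median log2 fold change of -0.03. Ciita, the class II transactivator, ran from 4.20 to 5.46 CPM in controls and from 3.33 to 5.89 CPM in iKO. Rfxap, a subunit of the RFX complex that binds the X box, was listed at 19.5 to 24.7 CPM in controls and 25.1 to 32.3 CPM in iKO. Every iKO library was above every control, as for 0.679% of all genes, and the fit gave a log2 change of 0.28 ± 0.077 (edgeR adjusted p = 0.16). H2-DMb1, a chain of the peptide exchange factor H2-DM, was at 0.17 ± 0.103 (adjusted p = 0.596).

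The C1q chains were high in 2 controls, control 2 and control 6. C1qa (ENSMUSG00000036887) ran from 26.5 to 48.5 CPM in controls (median 30.9) and from 23.6 to 37.8 CPM in iKO (median 27.8). C1qb ran from 25.5 to 47.0 CPM and from 24.8 to 36.1 CPM, and C1qc from 20.7 to 38.9 CPM and from 18.6 to 30.8 CPM. The other 4 controls lay inside the iKO range for all 3 chains. The log2 fold changes were -0.32 ± 0.145 for C1qa (edgeR adjusted p = 0.458), -0.25 ± 0.158 for C1qb and -0.23 ± 0.157 for C1qc. Without control 6 they were -0.22, -0.13 and -0.10.

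Among the partners of C1q in the complement system, 0 of 9 genes passed, with a median of -0.08. Serping1, the C1 inhibitor, had the smallest p of the list, at -0.17 ± 0.0374 (edgeR adjusted p = 0.0823), and was at -0.18 ± 0.0507 in replicates 1 to 4 (adjusted p = 0.308).

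The myeloid receptors were highest in control 6 for 6 of 7 genes. Cx3cr1 (ENSMUSG00000052336), the fractalkine receptor of macrophages and microglia, ran from 11.2 to 24.9 CPM in controls (median 17.0) and from 11.7 to 16.3 CPM in iKO (median 13.1). Control 6 stood alone at the top, control 4 alone at the bottom, and the other controls lay between 15.6 and 17.8 CPM. The log2 fold change was -0.40 ± 0.153 (edgeR adjusted p = 0.349), and -0.26 ± 0.0983 without control 6 (edgeR adjusted p = 0.365), a smaller difference with a smaller error. Its ligand Cx3cl1, which neurons make, was at 10.4 to 15.8 CPM in controls and 5.45 to 12.8 CPM in iKO, and its log2 fold change was -0.51 ± 0.178 (edgeR adjusted p = 0.296). Control 6, at 12.2 CPM of Cx3cl1, was not apart from the other controls. Of the 12 chemokine genes 8 were tested and 0 passed, with a median of -0.21 (-0.03 without control 6). Ccl21a, a chemokine of lymphatic tissue that has near-identical copies, had the smallest p of the list, at 1.38 ± 0.371 (adjusted p = 0.146).

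Csf1r (ENSMUSG00000024621), the receptor on which macrophage survival depends, ran from 35.1 to 77.2 CPM in controls (median 49.0) and from 34.5 to 57.4 CPM in iKO (median 42.8). Its log2 fold change was -0.34 ± 0.169 (edgeR adjusted p = 0.505), and -0.19 without control 6. Of its ligands, Csf1 was at -0.49 ± 0.184 (edgeR adjusted p = 0.345) and was also highest in control 6, at 35.8 CPM, while Il34 was at -0.08. Runx1, a factor of blood cell development, was at -0.15. None of the 8 genes in the list of CSF1 receptor ligands and myeloid factors passed, and their median was -0.11.

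Trem2 (a lipid-sensing receptor), Fcgr3 (an Fc receptor) and Ccr2 (the chemokine receptor of monocytes) had log2 fold changes of -0.32, -0.22 and -0.26. Without control 6 these were -0.18, -0.05 and 0.03. Itgam, the alpha chain of CD11b on neutrophils and monocytes as well as macrophages, reached 13.2 CPM in control 6 and 5.73 CPM in iKO 5, with at most 4.38 CPM elsewhere. Those libraries were also the first and second for the neutrophil and monocyte list. The log2 fold change of Itgam was -0.68 ± 0.506 with control 6 and -0.07 ± 0.384 without it.

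Cd14 (ENSMUSG00000051439), a lipopolysaccharide co-receptor, was the 1 member with a positive log2 fold change over all libraries, at 0.36 ± 0.265 (edgeR adjusted p = 0.675). Controls ran from 3.30 to 6.14 CPM (median 4.90) and iKO from 4.40 to 12.6 CPM (median 5.04). The high value was that of iKO 6, the next iKO library stood at 5.68 CPM, inside the control range, and without iKO 6 the log2 fold change was -0.03.

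The surface genes of resident macrophages had log2 fold changes from -0.27 to -0.10, and none was highest in control 6. Mrc1 (ENSMUSG00000026712), the mannose receptor CD206, ran from 19.7 to 30.5 CPM in controls (median 23.7) and from 15.3 to 27.7 CPM in iKO (median 25.7), with a log2 fold change of -0.15 ± 0.127. Cd163, a scavenger receptor for haemoglobin, ran from 2.94 to 20.8 CPM in controls and from 6.18 to 11.9 CPM in iKO, so the controls alone spanned the iKO range on both sides. Lyve1, a hyaluronan receptor of perivascular macrophages and lymphatic vessels, was at 3.76 ± 0.535 CPM in controls and 3.16 ± 0.21 CPM in iKO (mean ± SD, n = 6). Its log2 fold change was -0.25 ± 0.127 (edgeR adjusted p = 0.518) and hardly moved without control 6 (-0.23). Siglec1, a sialic acid receptor of macrophages, was at -0.27 ± 0.268 (adjusted p = 0.767).

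**Figure D2:**
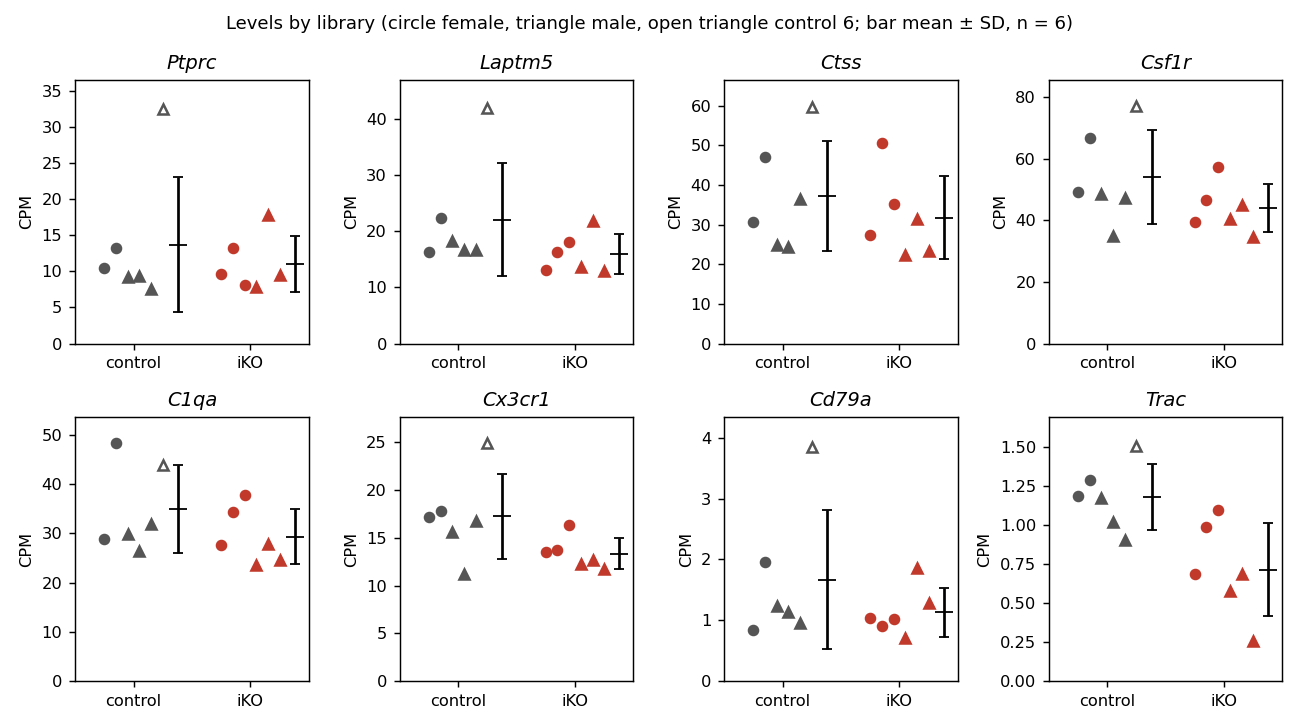
CPM in each library for 8 members, with circles for females, triangles for males, an open triangle for control 6 and bars for mean ± SD (n = 6 per group). Control 6 stands far above the other controls for Ptprc (32.5 CPM), Laptm5 (42 CPM) and Cd79a (3.86 CPM), while for C1qa (43.8 CPM) it lies below control 2 (48.5 CPM), and for Trac 4 iKO libraries lie below every control.

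The genes shared by leukocytes showed the widest gap between control 6 and the rest among the macrophage groups. Their median ratio of control 6 to the median of the other 5 controls was 2.23, and 7 of 8 were highest there. Ptprc, the pan-leukocyte phosphatase CD45, stood at 32.5 CPM in control 6 and at 17.9 CPM in iKO 5, with 7.57 to 13.3 CPM in the other 10 libraries. Laptm5, a lysosomal protein of blood cells, was at 42 CPM in control 6, against 12.8 to 22.4 CPM elsewhere. Tyrobp and Fcer1g, the adaptors DAP12 and the Fc receptor gamma chain, were at 24.5 and 20.4 CPM in control 6 and at most at 15.6 and 11.8 CPM in any other library. All 8 genes had a negative log2 fold change over all libraries, with a median of -0.26, and 5 of 8 had one without control 6, with a median of -0.11.

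Ctss (ENSMUSG00000038642), the cathepsin that trims the invariant chain, had the highest level per length in this group, at 27.4 CPM per kilobase in controls against 18.5 for Tyrobp. It ran from 24.3 to 59.7 CPM in controls (median 33.5) and from 22.3 to 50.7 CPM in iKO (median 29.4), with control 6 and iKO 2 at the top of each. Its log2 fold change was -0.31 ± 0.241 (edgeR adjusted p = 0.688), and -0.10 without control 6. Ly86 (MD-1, a partner of a Toll-like receptor homologue), Cd68 (a lysosomal macrophage protein) and Aif1 (IBA1) were at -0.18, -0.35 and -0.18, with adjusted p from 0.557 to 0.737, or at -0.12, -0.22 and -0.14 without control 6. Aif1, the usual stain for macrophages, was not apart in control 6, at 4.52 CPM within the 3.48 to 4.74 CPM of the controls.

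The lymphocyte genes were near the lower limit of these libraries. The means of all 10 lay between 0.40 and 1.94 CPM in controls. Trac (ENSMUSG00000076928), the constant segment of the T cell receptor alpha chain, ran from 0.901 to 1.51 CPM in controls (median 1.18) and from 0.257 to 1.10 CPM in iKO (median 0.686). Of the iKO libraries, 4 lay below every control and 2, iKO 2 and iKO 3, lay within the control range. The log2 fold change was -0.84 ± 0.259 (edgeR adjusted p = 0.225), the smallest adjusted p of any member. It was -0.72 ± 0.255 without control 6 (edgeR adjusted p = 0.321).

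Cd4 (ENSMUSG00000023274), the co-receptor for class II that some macrophages also carry, ran from 0.779 to 1.75 CPM in controls (median 1.43) and from 0.667 to 1.31 CPM in iKO (median 1.06). It did not stand out in control 6 (1.41 CPM), and its log2 fold change was -0.48 ± 0.219 (edgeR adjusted p = 0.455). The other T and NK cell members had log2 fold changes nearer 0 than Trac. Cd3e (a signalling chain of the T cell receptor) and Cd8a (the co-receptor of cytotoxic T cells) were at -0.28 ± 0.326 and -0.26 ± 0.279, or -0.04 and -0.12 without control 6. Nkg7, a granule protein of NK and cytotoxic T cells, was at -0.05 ± 0.551 with control 6 and 0.65 ± 0.417 without it. Of 13 further T and NK cell genes 4 were tested, 0 passed, and their median was -0.18 with control 6 and -0.05 without it. Il7r, the interleukin-7 receptor, was at -0.47, and the T cell kinase Lck at -0.13.

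The B cell genes had the largest median ratio of control 6 to the other controls among the role groups, 4.38, and all 4 were highest there. Cd79b (ENSMUSG00000040592), a signalling chain of the B cell receptor, was at 5.55 CPM in control 6, with 0.560 to 2.42 CPM in the other controls and 0.576 to 1.53 CPM in iKO. Its log2 fold change was -0.86 ± 0.505 with control 6 (edgeR adjusted p = 0.582) and -0.25 ± 0.353 without it. Cd79a, its partner chain, was at -0.50 and -0.11 in the same fits. Pax5 (ENSMUSG00000014030), the factor that fixes B cell identity, ran from 0.350 to 3.25 CPM in controls (median 1.03) and from 0.379 to 0.969 CPM in iKO (median 0.435). Its log2 fold change was -1.08 ± 0.42 (edgeR adjusted p = 0.356), and -0.66 ± 0.325 without control 6 (edgeR adjusted p = 0.522). Ms4a1 was the 1 member with a library at 0, iKO 4, whose depth allows up to 0.186 CPM.

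Of the 12 other B and plasma cell genes 9 were tested and 0 passed, with a median of -0.68 with control 6 and -0.22 without it. Ighd and Cd22, both of mature B cells, were at -1.53 (adjusted p = 0.236) and -1.25 (adjusted p = 0.313). Igkc, the kappa light chain, reached 94.9 CPM in control 6 and 52.9 CPM in the highest iKO library, and was at 15.0 CPM in the lowest control.

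The place of control 6 over the whole list can be counted. It was the highest library for 22 of 36 members, and for 21 of the 34 tested, against 12.6% of all genes. Control 2 or iKO 2 was highest for 12 of 36 (7.25% and 17.1% of all genes), Lyve1 was highest in control 5 and Cd14 in iKO 6. Control 6 was at least 1.5 times the median of the other 5 controls for 20 of 34 members (8.69% of all genes) and at least 2 times for 10 of 34 (4.17%). The median ratio was 1.60 over the members tested and 0.998 over all genes. At the other end, iKO 6 was the lowest library for 16 of 34 members, against 5.29% of all genes.

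By role group the median ratio in control 6 was 1.06 for MHC class II, 1.14 for the resident macrophage surface, 1.49 for T and NK cells, 1.56 for C1q, 1.75 for myeloid receptors, 2.23 for shared leukocyte genes and 4.38 for B cells. The same ratio was 13.3 for the neutrophil and monocyte list, 9.77 for red cells, 2.93 for astrocyte and oligodendrocyte genes of the central nervous system, 2.44 for the other macrophage genes, 1.42 for microglia and 1.35 for dendritic cells. It was 1.00 for Schwann cells, 1.06 for satellite glia and 0.855 for sensory neurons. The summed level of the Schwann cell genes was nonetheless highest in control 6, at 12205 CPM against at most 9962 CPM in the other controls. Of these 5 genes, 2 were highest in control 6.

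**Figure D3:**
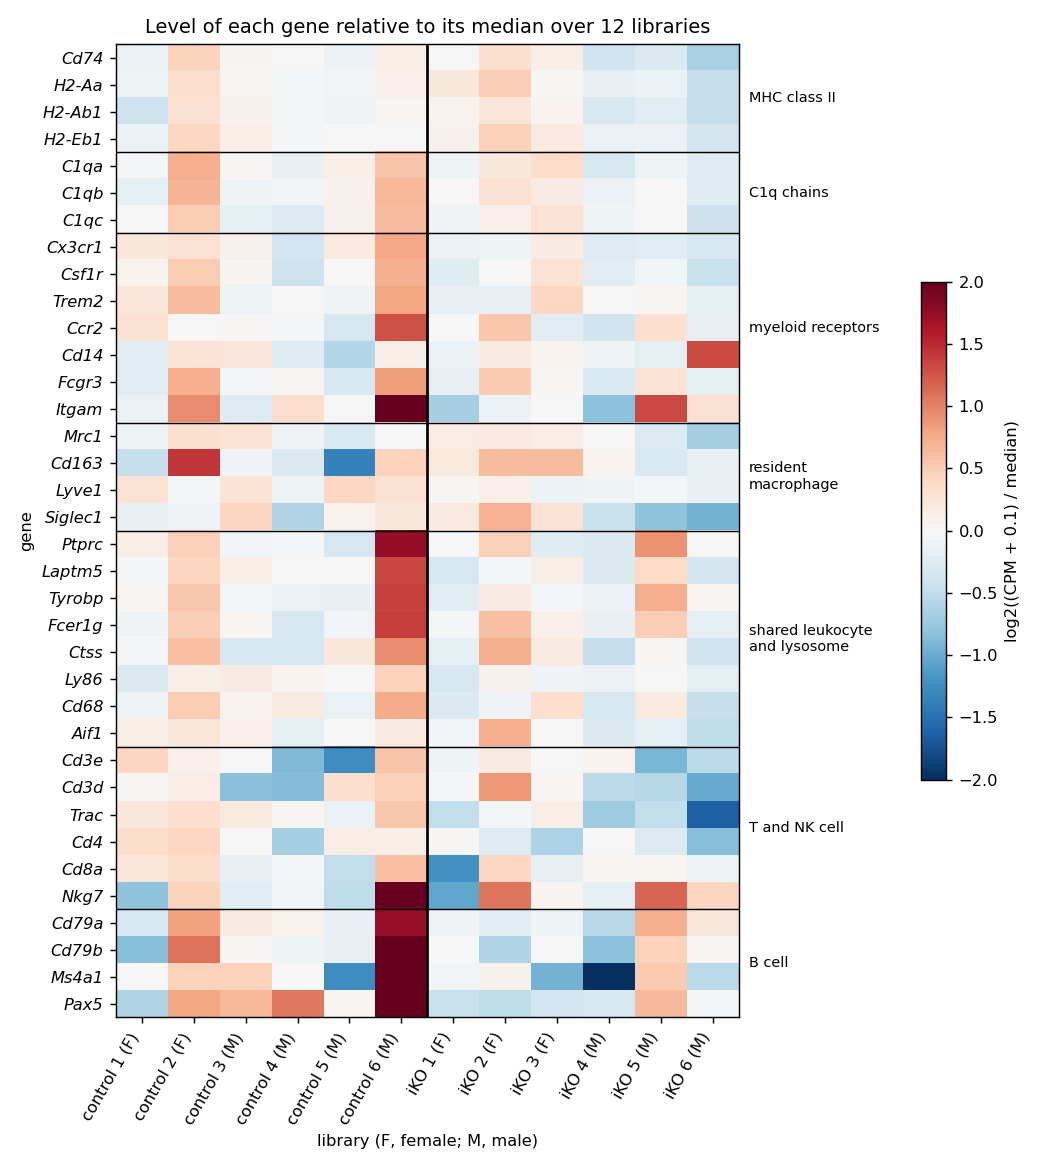
Level of each of the 36 members in each library on a log2 scale relative to the gene's median over the 12 libraries, with genes ordered by role and colours capped at 2 in either direction. Control 6 is red through the shared leukocyte and B cell genes and near white for MHC class II, and iKO 6 is blue for most members except Cd14, at 12.6 CPM.

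Some fits added the level of such other transcripts as a covariate or left libraries out. Both covariate lists were high in control 6, with the median ratios of 13.3 and 2.93 given above. The covariate fits are therefore not separate from leaving that library out. With the mean level of the neutrophil and monocyte genes as a covariate, chosen after the data were seen, 31 of 34 members had a negative log2 fold change (49% of all genes), with a median of -0.20, and 0.866% of all genes passed. With the mean level of the central glial genes as a covariate it was 28 of 34 (47.3%), with a median of -0.13, and 0.505% of all genes passed. In the tamoxifen-injected animals alone it was 29 of 34 (48.2% of all genes), with a median of -0.15 and 2 members at an unadjusted p under 0.05 (7.88%), and 0.165% of all genes passed. Without control 6 and iKO 5 together, also chosen afterwards, it was 29 of 33 (49.1%), with a median of -0.17, and 0.35% of all genes passed. No member passed in any of these fits.

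**Figure D4:**
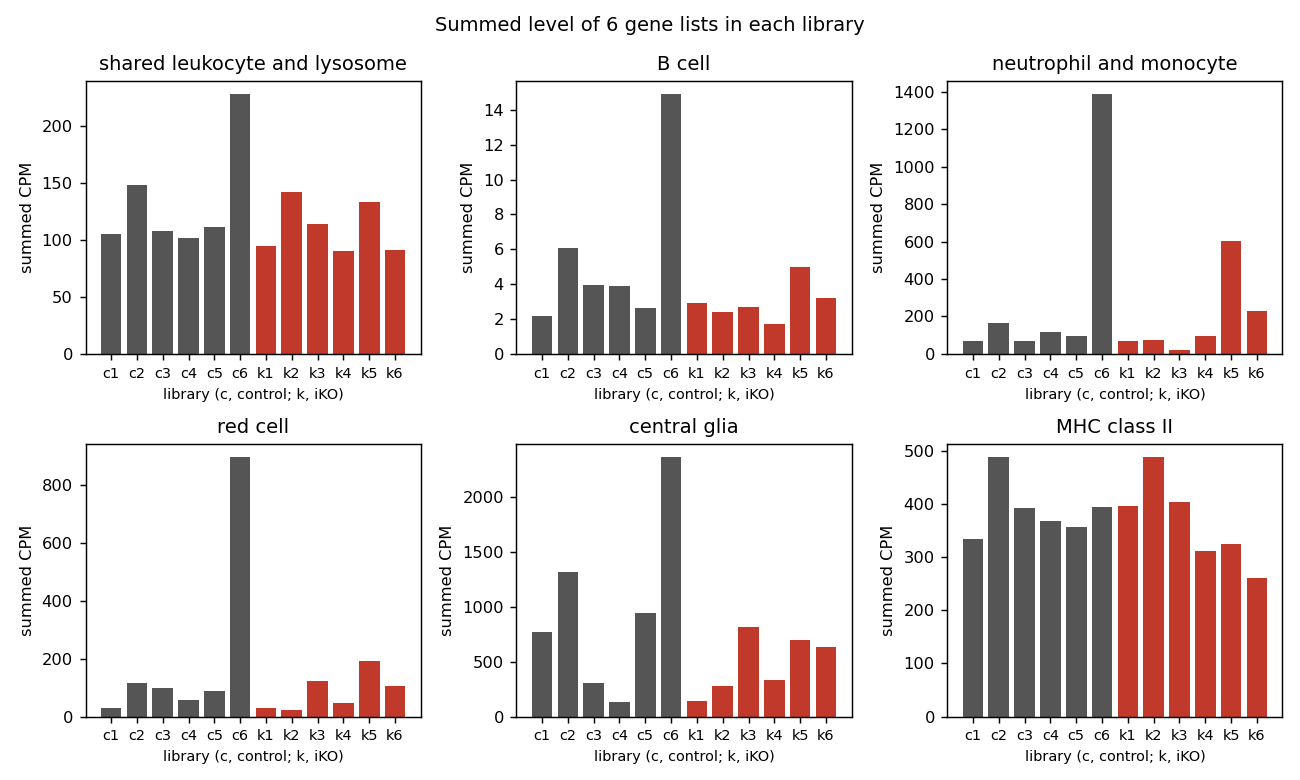
Summed CPM of 6 gene lists in each library, controls in grey (c1 to c6) and iKO in red (k1 to k6), each panel on its own axis from 0. The neutrophil and monocyte sum is 1388 CPM in control 6 and 604 CPM in iKO 5, and the red cell sum is 898 CPM in control 6, while the MHC class II sum is 395 CPM there, between the 334 and 489 CPM of controls 1 and 2.

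In replicates 1 to 4 every animal received tamoxifen, so the groups do not differ in injection. Again 0 of 34 members passed, where 0.114% of all genes did, and 0 members had an unadjusted p under 0.05 in edgeR against 7.93% of all genes. DESeq2 also called 0. Of the members, 31 of 34 had a negative log2 fold change against 51.6% of all genes, with a median of -0.16. The class II genes were close to 0 here, at -0.17 for Cd74, 0.02 for H2-Aa, -0.04 for H2-Ab1 and -0.00296 for H2-Eb1. Cx3cr1 was at -0.22 ± 0.143, Trac at -0.57 ± 0.319 and Pax5 at -1.04 ± 0.565, with adjusted p from 0.724 to 0.784. Without control 6, 31 of 34 were negative (51% of all genes) and 2 members had an unadjusted p under 0.05 (8.15%), with 0 passing. That library is not in this set and enters through the shared spread, the scaling and the filter. Without the filter on low counts 1 of 36 members was called, Itgam, lower at -0.84, against 1.7% of 36539 genes. The median depended on control 2: without it 21 of 34 members were negative and the median was -0.04.

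In replicates 5 and 6 the animals shared sex and genotype and differed in the injection. None of the 34 members passed, where 0.00601% of all genes did, and DESeq2 called 0. A negative log2 fold change was seen for 33 of 34 members against 51.5% of all genes, with a median of -0.54, and 9 members had an unadjusted p under 0.05 against 7.87% of all genes. The 9 were Cd74, C1qa, C1qc, Cx3cr1, Csf1r, Cd14, Siglec1, Ctss and Trac. Control 6 is 1 of the 2 controls in this set. Without it 17 of 34 members were negative against 49.6% of all genes, and the median was -0.05. In that fit 0 members passed, where 0.0239% of all genes did, 3 members (Cx3cr1, Cd14 and Ptprc) had an unadjusted p under 0.05 against 7.36%, and the lone corn oil control is assumed to vary like the other groups.

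Without the filter on low counts 11 of 36 members were called, 10 lower and Cd14 higher, against 2.78% of all genes. Genes called rose from 1 to 1014. The fold changes hardly moved and the errors were smaller, as for Ctss at -0.80 ± 0.123 against -0.81 ± 0.296 with the filter. Csf1r was at -0.64 ± 0.114 against -0.65 ± 0.256. Control 6 is 1 of the 2 controls here too, and this fit was not run without it.

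Cx3cr1 had the smallest p of that set. Its 2 controls were at 16.8 and 24.9 CPM and its 2 iKO libraries at 12.6 and 11.7 CPM, which gave -0.78 ± 0.194 (edgeR adjusted p = 0.454). Siglec1 was at 4.15 and 4.66 CPM in the controls and at 2.22 and 2.00 CPM in iKO, which gave -1.06 ± 0.364 (edgeR adjusted p = 0.577). Without control 6 the values were -0.47 and -0.97. Cd14 was at 0.94 ± 0.415 with iKO 6 and at -0.00233 without it.

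The difference between these 2 replicate sets was tested in the same fit. No member passed and 0% of all genes did, and DESeq2 called 0 members. Siglec1 (-1.25 ± 0.455) and Cx3cr1 (-0.56 ± 0.241) had an unadjusted p under 0.05 in edgeR, against 3.41% of all genes. The difference was negative for 31 of 34 members (53.1% of all genes) with a median of -0.32. Without control 6 it was negative for 17 of 34 (50.8%) with a median of 0.12, and 5 members had an unadjusted p under 0.05 (5.22%). Without the filter on low counts 1 of 36 members was called, Ctss at -0.72, against 1.58% of all genes. Sex was a covariate in these fits. Injection and replicate set cannot be told apart among the controls, since both corn oil animals are the controls of the second set.

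Sex was compared in the fit of all 12 libraries, with group as a covariate and no term for replicate set. Every animal of replicates 5 and 6 was male, among them both corn oil controls, so sex overlaps with replicate set and injection. No member passed, where 0.108% of all genes did, and DESeq2 called 0 members. At an unadjusted p under 0.05 edgeR gave 6 members, all with a negative log2 fold change of male against female, compared with 10.2% of all genes. They were Cd74 at -0.39 ± 0.115 (edgeR adjusted p = 0.443), H2-Aa at -0.32, H2-Eb1 at -0.32, Mrc1 at -0.31, Cd163 at -0.80 and Aif1 at -0.39. Cd163 was at -0.35 without control 2, and Aif1 at -0.22 without iKO 2. Overall 21 of 34 members were negative, against 50.2% of all genes.

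Cd74 ran from 126 to 187 CPM in the 5 females (median 151) and from 87.6 to 150.3 CPM in the 7 males (median 127). Cd163 ran from 5.53 to 20.8 CPM in females and from 2.94 to 10.5 CPM in males. The sexes overlapped for every member, since none had every male library below every female library (0.307% of all genes did) or above (0.162%). Control 6 is a male and was the highest library for most members, so leaving it out lowers the male values. Without it 28 of 34 members were negative (51.9% of all genes) and the median moved from -0.17 to -0.28. The median also depended on females, at -0.09 without control 2, -0.11 without iKO 3 and -0.24 without control 1. In the fit without control 6, 14 members had an unadjusted p under 0.05 against 11.2% of all genes. These 14 included all 3 C1q chains, Cx3cr1, Csf1r and Ctss, and 0 passed, where 0.0836% of all genes did.

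**Figure D5:**
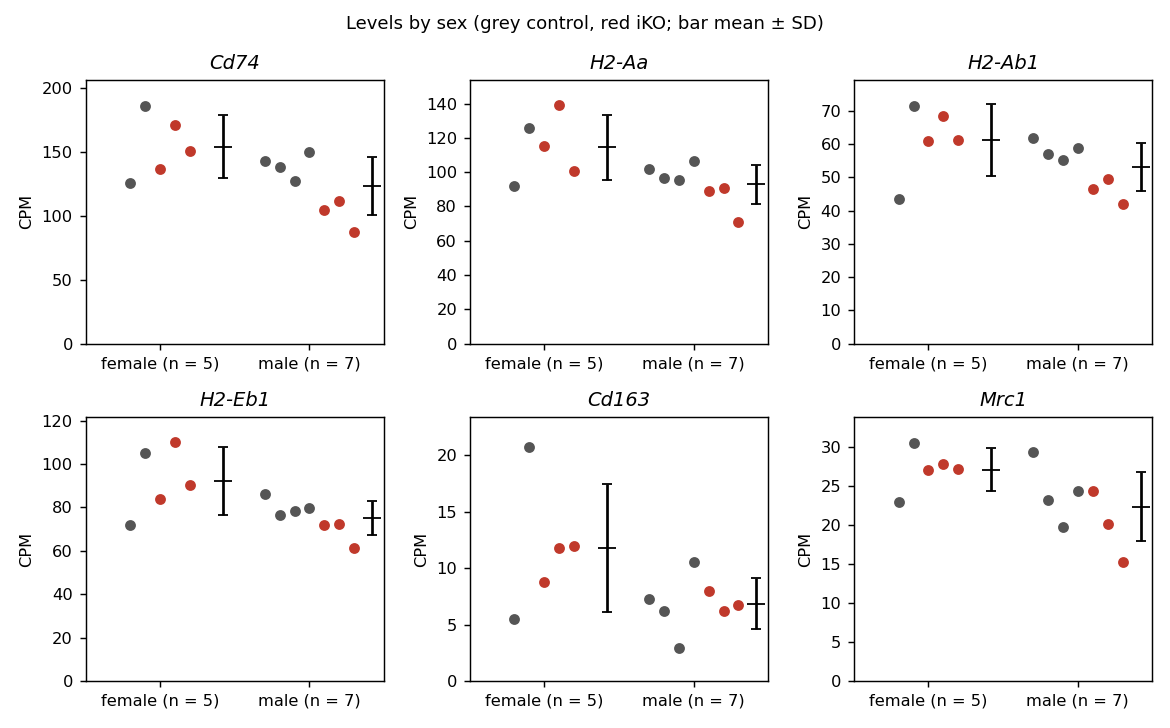
CPM of 6 members by sex, controls in grey and iKO in red, with bars for mean ± SD (5 females, 7 males). For the 4 MHC class II genes the 3 male iKO points lie below the 4 male control points, as in the 87.6 to 112 CPM against 127 to 150.3 CPM of Cd74, while female points of both groups are mixed.

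Markers of other cells that the samples could hold were measured beside the members, and 1 of these lists held a call. Pmp22, a myelin protein of Schwann cells, was called higher in iKO at 0.36 ± 0.0574 (edgeR adjusted p = 0.018), as the 1 of 5 genes in its list. The 8 microglial genes, which resident macrophages share in part, had a median log2 fold change of -0.43 (-0.30 without control 6), with 4 at an unadjusted p under 0.05 and 0 past the threshold. Gpr34, a lysophospholipid receptor, was at -0.47 ± 0.152 (adjusted p = 0.251) and Olfml3 at -0.26 ± 0.102 (adjusted p = 0.367). The 8 other macrophage genes tested had a median of -0.21 (-0.02 without control 6), with the clotting factor chain F13a1 at -0.45 and Adgre1, the F4/80 antigen, at -0.20. The 5 dendritic cell genes tested had a median of 0.08, with the transcription factor Zbtb46 at -0.14 and the receptor Flt3 at 0.08.

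The lists highest in control 6 moved most when it was left out. The 9 neutrophil and monocyte genes had a median of -0.68 with it and 0.53 without it, with Retnlg at -0.82 and the granule protein Ngp at -0.75 over all libraries. The 6 red cell genes had a median of -0.95 with it and 0.06 without it, with the globin gene Hba-a2 at -1.05 and the band 3 gene Slc4a1 at -0.90. The 7 central glial genes had a median of -1.0 with it and -0.51 without it, and their sum ran from 134 to 2363 CPM in controls and from 139 to 813 CPM in iKO. Of these, Aldh1l1 was at -0.39 and the glutamate transporter Slc1a2 at -1.0. None of the genes in these 3 lists passed.

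The lists of the ganglion and its coverings moved less with control 6. The 7 fibroblast and meningeal genes had a median of -0.28 in both fits and 0 passed, with Ptgds at -0.98 ± 0.204 (edgeR adjusted p = 0.0638) and the matrix proteoglycan Dcn at -0.28 ± 0.0618 (adjusted p = 0.0823). Endothelial genes had a median of -0.02, with the cadherin Cdh5 at -0.46 and Emcn at -0.13. Satellite glial genes had a median of 0.04, with Lgi4 at 0.17 and the potassium channel Kcnj10 at -0.41. Sensory neuron genes had a median of -0.00394, with the neuropeptide gene Calca at -0.23 (adjusted p = 0.092) and Isl1 at 0.08. Skeletal muscle genes had a median of 1.30, with the myosin Myh4 at 3.34 and Neb at 0.63. Their sum was 628 CPM in iKO 5 and 192 CPM in iKO 6, against 56.2 to 91.3 CPM in the other iKO libraries, and without control 6 and iKO 5 the median was 0.51. Pituitary genes had a median of 0.01, with Pomc at 0.74 and Gh at -0.15 (the growth hormone gene). The part of these cells in the member values was not tested.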

How the data were processed

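Whole-tissue RNA of 12 ganglia was read with a polyA kit that does not keep strand, per the labels' protocols, so overlapping and antisense genes cannot be told apart. The authors deposited raw counts per gene and library. Per the submitters' processing notes, the build was GRCm39, and the tools named are featureCounts 2.0.1, STAR 2.7.8a and, besides these, bcl2fastq 2.20.0.422. Read handling beyond this was not given in the sources used.

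Of 55416 identifiers 52083 had a symbol, and the 3333 without one held 0.274% of counts. Counts were fitted with edgeR 4.0.16 in R 4.3.3 (TMM, filterByExpr, quasi-likelihood test), with sex and group as terms, Benjamini-Hochberg adjustment over 16637 genes and a threshold of 0.05. The replicate sets were fitted together, and DESeq2 1.42.0 was an alternative. CPM used TMM sizes, and levels per kilobase used exon lengths from GENCODE M21 (GRCm38). Errors of log2 fold changes are SEs. Nothing in the labels says more of the replicates than separate animals of a group. Replicate libraries differed by more than counting noise in all 30 pairs. Samples were grouped by their labels. Promoters came from RefSeq (GRCm38.p6).

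The members and lists were chosen with earlier results of these data known. The text names every member, and from each other list the genes past the threshold (up to 4) or, where none passed, the 2 with the smallest p. 1 gene that this rule names is not reported here. Ciita, Il34 and Igkc were added for their roles after their values were seen. The fits with a neutrophil covariate, without control 6 and iKO 5 together, and by group and sex were added after seeing the data. On simulated data the fit of iKO against control over all 12 libraries recovered 86% of 2-fold and 62% of 1.5-fold changes. The same shares were 71% and 52% in replicates 1 to 4, and 59% and 21% in replicates 5 and 6. They were 45% and 9% for the difference between these sets and 84% and 66% for male against female. The test of the difference between the sexes recovered 53% and 8%. Changed genes were drawn from those with a mean of at least 1 CPM, so genes below it, such as Cd3e, are not covered. Noise was drawn gene by gene, so no simulated library stood high for many genes at once as control 6 did. No change smaller than 1.5-fold was simulated.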

Additional observations from a re-analysis of the deposited data

Results flagged for a closer look

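In each of 72 groups (36 members, controls and iKO apart) the highest and lowest of the 6 libraries were compared with the rest by the gap to the next library as a share of the group's range, both on the log2(CPM + 1) scale. In 6 groups 1 library stood apart beyond Dixon's 95% critical value for 6 samples, and chance alone marks about 1 in 20 groups. Of these, 3 were in control 6. On the CPM scale itself it was 17 groups, 11 of them in control 6, so these counts depend on the scale. Laptm5 was at 42 CPM there with the next control at 22.4, Nkg7 at 3.90 CPM with the next at 1.13, and Ms4a1 at 2.26 CPM with the next at 0.619. The others were in iKO libraries. Cd14 was at 12.6 CPM in iKO 6 with the next at 5.68, Trem2 at 5.69 CPM in iKO 3 with the next at 4.36, and Pax5 at 0.969 CPM in iKO 5 with the next at 0.564.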

How the results depend on the processing

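No member was called with another scaling (RLE) or any library left out, by DESeq2 or with the replicate block. The block was not run for male against female, and neither DESeq2 nor the block for the difference between the sexes. Without the filter on low counts, of 36 members, 1 was called in replicates 1 to 4 (1.7% of 36539 genes), 11 in replicates 5 and 6 (2.78%) and 1 in the difference between the sets (1.58%). The cause was not tested. Genes called for iKO against control were 63, and 138 without the filter, 333 by DESeq2, 34 with the replicate block, 28 in tamoxifen-injected animals, 1 in males and 144 with the neutrophil covariate. For replicates 1 to 4 they were 19, and 621 without the filter, 135 by DESeq2, 2 with the block and 12 fitted alone. For replicates 5 and 6 there was 1, and 2 with RLE, 1014 without the filter, 68 by DESeq2 and 0 with the block. The difference between sets gave 0, and 578 without the filter or 3 by DESeq2. Male against female gave 18, and 33 without the filter or 55 by DESeq2. Leaving out 1 library gave 23 to 88, 2 to 18, 1 to 26, 0 to 15 and 11 to 15 genes in these 5 comparisons. The labels give both groups the same replicate numbers. The deviations of same-numbered libraries correlated from -0.407 to 0.287, and only iKO 4 correlated best with the control of its own number. The main fits did not pair the samples, and what the numbers stand for is not given. With the block 22 of 34 members in replicates 1 to 4 were negative (51.4% of all genes), with a median of -0.10, and 3 of the 4 class II genes were positive. The block fits had no term for sex, and control 3 was male while iKO 3 was female. Pairing and sex therefore cannot be told apart in this change of sign. Lymphocyte genes are limited by depth.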

Other observations

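MHC class I and interferon response genes stood high in iKO 2. The 10 class I genes summed to 1342 CPM there and to at most 827 CPM in controls, with B2m, the light chain of class I, at 728 CPM. The 9 interferon response genes summed to 305 CPM in iKO 2 and to at most 196 CPM in controls. In the fit of all libraries 0 of the 10 and 0 of the 9 passed in edgeR, with medians of 0.09 and 0.08. The genes with the smallest p were B2m (0.23) and H2-K1 (0.15) for class I, and Oas2 (0.29) and Ifit3 (-0.27) for the interferon response, all on the log2 scale.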
